A study of Rattus norvegicus with 6 samples.

Results

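The mRNA levels of genes for cholesterol synthesis, for the SREBP2 pathway and for sterol transport were followed in purified rat beta cells, the insulin-producing cells of the pancreatic islets, after feeding and after a fast. The 33 genes were taken by name and known role, not by a rule on measured values, but earlier results of these data were known. Of them, 31 had at least 1 probe set annotated to that gene alone, among 14217 genes represented in this way on the arrays. The remaining 2 were not analysed here. The cells came from male Wistar rats of 10 weeks. The fed group had food ad libitum and the fasted group went without food for 24 hours, with no other treatment in either group. Each group had 3 isolates, each from its own pool of 5 rats, so that values of single animals are not known. Cells were sorted by FACS to a high but incomplete share of insulin-positive cells and snap frozen directly after isolation, and RNA of all isolates was extracted in one batch.

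Cells make cholesterol from acetyl-CoA in a long chain of enzymes that runs through mevalonate, squalene and lanosterol. The transcription factor SREBP2, encoded by Srebf2, is made as a membrane-bound precursor. It stays in the endoplasmic reticulum with its escort protein SCAP as long as sterols are plentiful, because INSIG proteins hold the complex there. When membrane sterol falls, SCAP carries SREBP2 to the Golgi, where a pair of proteases cuts free the part that switches on the genes of synthesis and uptake. In the opposite direction, oxysterols activate the nuclear receptors LXR, which switch on the exporters ABCA1 and ABCG1. In beta cells, membrane cholesterol is known to affect insulin granules and secretion.

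Of the 31 genes, 6 (19.4%) were higher after the fast at an unadjusted p below 0.05, a count chosen after seeing the data, against 3.25% of all probe sets, and 1 was lower, against 11.6%. The remaining genes did not pass, and 21 of the 31 had a 95% interval that reached past 1.5-fold in some direction. The 6 higher genes were the synthesis enzymes Cyp51, Msmo1 and Sc5d, the SREBP2 regulator Insig1, the lysosomal cholesterol carrier Npc2 and the exporter Abca1. Their log2 changes (fasted over fed) lay between 0.23 and 0.58. When the probe sets of a gene were averaged, Sc5d (0.08) no longer passed and the change of Abca1 turned to -0.23, without passing. One gene, the LXR family member Nr1h3, was lower, at a level close to the detection floor. The transcript of SREBP2 itself did not pass the test, with a log2 change of -0.09 ± 0.10 (SE). None of these differences passed a Benjamini-Hochberg adjustment over all 31042 probe sets, where the lowest adjusted p of any probe set was 0.155 in the limma fit.

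Promoter sequences of the 6 genes that were higher after the fast are shown because all 3 fasted arrays lay above all 3 fed arrays for each of them. Each run holds the 150 bases before the annotated transcription start in the RefSeq assembly GRCr8, 5′ to 3′ on the strand of the transcript. Capitals mark a CCAAT box (CCAAT), a GC box (GGGCGG) or an E-box (CACGTG) read on either strand. Cyp51 lies at chr4:30991543-30991692 on the plus strand, Msmo1 at chr16:29746963-29747112 on the plus strand, Sc5d at chr8:51538278-51538427 on the minus strand, Insig1 at chr4:8057770-8057919 on the minus strand, Npc2 at chr6:110149246-110149395 on the minus strand and Abca1 at chr5:72596474-72596623 on the minus strand.
Cyp51: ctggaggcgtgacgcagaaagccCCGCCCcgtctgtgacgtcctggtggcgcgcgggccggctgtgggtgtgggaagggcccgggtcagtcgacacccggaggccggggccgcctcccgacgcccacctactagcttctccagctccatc
Msmo1: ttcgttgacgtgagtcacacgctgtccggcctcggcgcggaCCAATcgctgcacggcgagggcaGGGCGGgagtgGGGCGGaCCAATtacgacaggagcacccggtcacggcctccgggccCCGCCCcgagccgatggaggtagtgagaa
Sc5d: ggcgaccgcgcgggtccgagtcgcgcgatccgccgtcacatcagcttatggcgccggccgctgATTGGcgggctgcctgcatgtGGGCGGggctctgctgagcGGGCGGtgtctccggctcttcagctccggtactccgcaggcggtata
Insig1: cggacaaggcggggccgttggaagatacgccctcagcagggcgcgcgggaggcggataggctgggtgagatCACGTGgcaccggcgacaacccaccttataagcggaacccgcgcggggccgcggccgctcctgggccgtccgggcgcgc
Npc2: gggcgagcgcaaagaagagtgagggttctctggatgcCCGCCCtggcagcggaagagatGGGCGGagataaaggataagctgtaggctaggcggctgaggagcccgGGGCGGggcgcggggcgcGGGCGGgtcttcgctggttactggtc
Abca1: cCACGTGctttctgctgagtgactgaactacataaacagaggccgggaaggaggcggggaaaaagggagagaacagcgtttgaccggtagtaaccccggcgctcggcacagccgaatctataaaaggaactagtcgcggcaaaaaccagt

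A window of 250 bases before to 50 bases after the start was held for 26 of the 31 genes. In these windows a CCAAT box was found for 17 genes (65.4%) and a GC box for 20 genes (76.9%), counting both strands. The same letters were found in 37.3% and 57.5% of the 11701 windows of genes on the array, and in 37.7% and 34.9% of all 27457 windows. NF-Y binds CCAAT boxes and SP1 binds GC boxes, and both are known to act beside SREBP2 at sterol genes. The E-box was found in 4 windows (15.4%), against 8.94% for genes on the array and 6.65% of all windows. The sterol regulatory element spelled TCACNCCAC was in none of the 26 windows and in 1.13% of all windows, which says only that these letters do not occur in these stretches. No match of one motif overlapped a match of another in the 26 windows. Among the 6 printed runs, CCAAT boxes occur for Msmo1 and Sc5d, GC boxes for Cyp51, Msmo1, Sc5d and Npc2, and an E-box for Insig1 and Abca1.

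Signal was summarised by the authors as 1 intensity per probe set on a linear scale, and log2 values were tested after a floor at 3.27, the 10th percentile of all values. A gene was called when it changed at least 1.5-fold with an unadjusted p below 0.05. For genes with several probe sets the one with the highest mean over the 6 arrays stands for the gene. The sterol genes gave 30 of 31 such probe sets above the median of all probe sets. Across all probe sets 2616 (8.43%) were called lower and 737 (2.37%) higher after the fast. At the unadjusted p alone, 3612 (11.6%) were lower and 1010 (3.25%) higher. Against this, 1 of the 31 sterol genes was called lower and none higher, and at the unadjusted p alone 1 was lower and 6 (19.4%) were higher. All 3 fasted arrays lay above all 3 fed arrays for 6 of the 31 genes, against 5.24% of all probe sets, and below them for 1 gene, against 17.6%. With 3 arrays against 3, an exact permutation test of a single gene cannot give a two-sided p below 0.1.

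The median log2 change of the 31 genes was -0.03, with 17 changes below 0 and 14 above. The median over all probe sets was -0.20, so that the sterol genes lay 0.17 higher than the bulk of the array, and 22 of the 31 were above that overall median. Fasted replicates 1 and 2 were dimmer than every fed array, with median intensities of 17.1 and 17.8, while fasted replicate 3 (21.0) lay within the fed range of 20.2 to 21.8. Fasted replicate 1 held the lowest of the 6 values for 12 of the 31 sterol genes and for 41.4% of all probe sets. Fasted replicate 3 held the highest value for 12 of the sterol genes and for 15.5% of all probe sets. When the arrays were brought to one distribution by quantile normalization, the overall median became -0.02 and the median of the sterol genes 0.15. Scaling to the 75th percentile gave 0.01 and 0.22. Under quantile normalization 4 sterol genes passed both thresholds as higher (Cyp51, Msmo1, Tm7sf2 and Abca1), and under 75th percentile scaling 6 did (the same 4 with Sc5d and Npc2), while none passed as lower. At the unadjusted p alone, 9 sterol genes were higher under quantile normalization, against 6.25% of all probe sets, and 10 under 75th percentile scaling, against 7.1%. The split over all probe sets moved as well, to 1504 lower and 1266 higher under quantile normalization and to 1326 lower and 1426 higher under 75th percentile scaling.

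**Figure D1:**
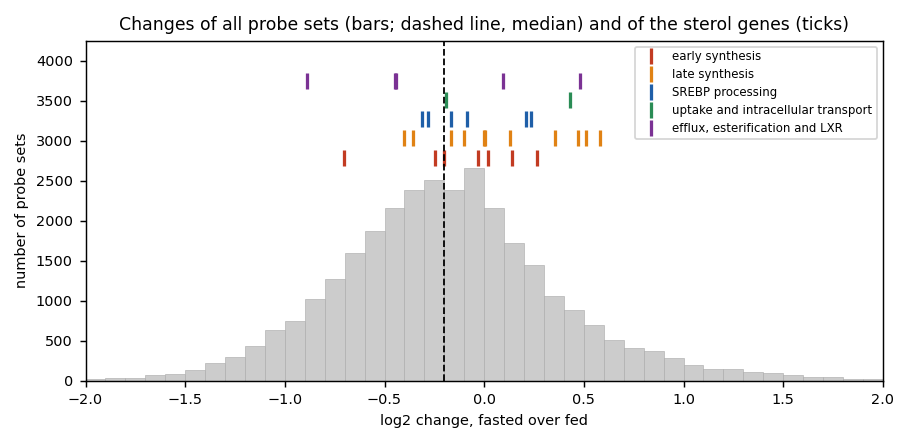
Histogram of the log2 change (fasted over fed, x axis) of all 31042 probe sets (y axis, number of probe sets per bin), with 1 tick for each of the 31 sterol genes, coloured by role and set above the bars. The dashed line is the overall median at -0.20. The 22 ticks to its right include Msmo1 at 0.58, and the lowest tick is Nr1h3 at -0.89.

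The early steps of synthesis, from acetyl-CoA to squalene, were represented by 7 genes. As deposited, none of these genes was higher (all probe sets, 3.25%) or lower (all probe sets, 11.6%) at the unadjusted p. Their median log2 change was -0.03. Fdft1, squalene synthase, which commits the pathway to sterols, had the largest test statistic of the group. Its intensities were 158, 161 and 179.6 on the fed arrays and 165, 212 and 227 on the fasted arrays. The fasted range overlapped the fed range through replicate 1, and the log2 change was 0.26 ± 0.15 (adjusted p = 0.413). A dimmer probe set of Fdft1 read 48.4, 37.7 and 51.1 in the fed and 220.1, 156 and 68.0 in the fasted group. There all fasted values lay above all fed values, with the 3 fasted values wide apart, and this probe set was called higher (log2 change 1.55 ± 0.43, adjusted p = 0.253). Both probe sets of Fdft1 had a change above 0, and the sizes differed widely. Their mean changed by 0.91 and was called higher. The brightest one passed at the unadjusted p under quantile normalization (0.42), 75th percentile scaling (0.51) and without fasted replicate 1 (0.40). Idi1 (0.38) also passed under 75th percentile scaling, and Fdps (0.23) without fasted replicate 1. Of all probe sets, 6.25%, 7.1% and 3.14% were higher in these settings, in that order.

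Idi1, which isomerises isopentenyl diphosphate, gave 504, 594 and 583 in fed cells and 539.9, 604 and 716 in fasted cells. The groups overlapped and the log2 change was 0.14 ± 0.13. Its second probe set changed by -0.16 ± 0.21. Fdps, farnesyl diphosphate synthase, read 338.5, 356 and 379.6 against 268, 431 and 410.3, so that fasted replicate 1 lay below and the other two above every fed array, and the change was 0.02 ± 0.19. Acat2, which joins acetyl-CoA units, also had fasted replicate 1 lowest and the other two above every fed array, with 88.4, 116 and 130.2 in the fed and 66.2, 132 and 143 in the fasted group (-0.03 ± 0.33).

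The kinases and the decarboxylase of the mevalonate branch had changes below 0 on their brightest probe sets that did not pass the test. Mvk, mevalonate kinase, read 38.9, 35.0 and 38.2 in fed cells and 10.4, 30.2 and 38.3 in fasted cells. The log2 change of -0.70 ± 0.51 (adjusted p = 0.505) was -0.13 without fasted replicate 1. A second probe set of Mvk changed by -0.41 ± 0.28 and the dimmest one, near the floor, by 1.01 ± 0.55, and the mean of the 3 changed by -0.03. Pmvk, phosphomevalonate kinase, changed by -0.20 ± 0.23 and Mvd, the decarboxylase, by -0.25 ± 0.20, both with overlapping groups.

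The late steps, from squalene to cholesterol, were represented by 11 genes. Of these 11 genes, 3 were higher at the unadjusted p (all probe sets, 3.25%) and none lower (all probe sets, 11.6%). Their median log2 change was 0.00, and 9 of the 11 were above the overall median of the array. Msmo1, the methylsterol monooxygenase that removes methyl groups from lanosterol-derived sterols, gave 783, 903 and 921 on the fed and 1318.5, 1306 and 1272 on the fasted arrays. Fed arrays averaged 869 ± 74.96 (SD, n = 3) and fasted arrays 1299 ± 24.0 (SD, n = 3), with a wide gap between the groups. The log2 change of 0.583 ± 0.084 stood just short of the 1.5-fold limit of 0.585, with rank 74 among all probe sets by p and an adjusted p = 0.155. It kept an unadjusted p below 0.05 in all 16 alternative analyses, with changes between 0.51 and 0.83. The adjusted p of Msmo1 fell to 0.0442 with a pseudocount and no floor and to 0.0368 with a robust variance estimate. It fell to 0.0324 when dim probe sets were left out, where the adjustment ran over 15520 probe sets in place of 31042. The range over all alternatives was 0.0324 to 0.523. No other gene of the list had an adjusted p below 0.05 in any of the 16.

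Cyp51, the lanosterol demethylase that acts shortly before Msmo1, read 442, 418 and 410.5 in fed cells and 597, 540.3 and 625 in fasted cells. All fasted arrays were above all fed arrays, and the log2 change was 0.47 ± 0.08 (adjusted p = 0.176). This probe set is of a type that can detect more than one transcript. The other probe set of Cyp51, which read 165 to 183 in fed and 156 to 195 in fasted cells, changed by 0.06 ± 0.12. The mean of both probe sets changed by 0.27 and passed at the unadjusted p, and Cyp51 kept an unadjusted p below 0.05 in all 16 alternative analyses.

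Sc5d, a sterol desaturase near the end of the pathway, read 287, 345 and 295 in fed and 384, 385 and 413 in fasted cells. The groups did not overlap and the log2 change was 0.36 ± 0.10 (adjusted p = 0.251). Its 2 dimmer probe sets changed by 0.08 ± 0.23 and -0.18 ± 0.25, and the mean of all probe sets gave 0.08, which did not pass. The difference in Sc5d thus rested on 1 of the 3 probe sets.

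**Figure D2:**
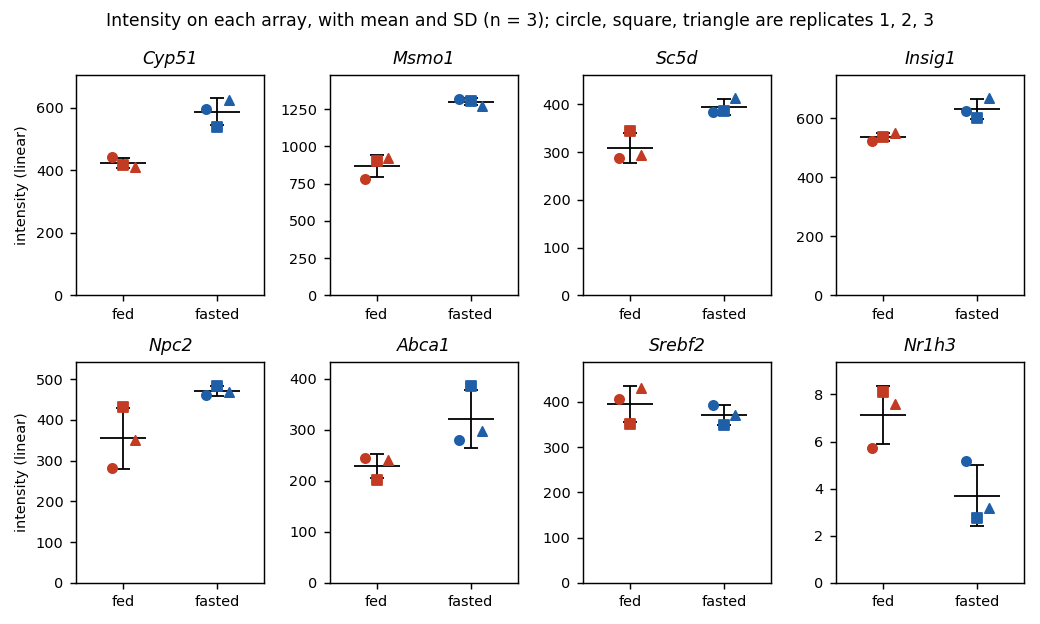
Deposited linear intensity (y axis, from 0) on each of the 3 fed (red) and 3 fasted (blue) arrays for 8 sterol genes, with symbols for the replicates and bars for mean and SD (n = 3). Fasted arrays lie above fed arrays for Cyp51, Msmo1, Sc5d, Insig1, Npc2 and Abca1, overlap them for Srebf2 and lie below them for Nr1h3, whose values are all under 10 units.

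The other 8 enzymes of the late steps did not pass the test. Tm7sf2, a sterol reductase, read 29.1, 41.7 and 49.8 in fed and 63.9, 48.6 and 56.5 in fasted cells. Its log2 change of 0.51 ± 0.25 was near that of Cyp51 in size, but the groups overlapped (adjusted p = 0.379), and only without fed replicate 3 among the fits that left out an array was it called higher (0.68). Lbr, the second enzyme with this reductase activity and also a protein of the nuclear envelope, read 30.5, 25.1 and 26.9 against 15.6, 21.7 and 49.1. Fasted arrays lay on both sides of the fed arrays, with a change of -0.10 ± 0.45.

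Sqle, squalene epoxidase, an enzyme known for tight control by sterols, read 109, 75.7 and 112 in fed and 76.8, 99.99 and 121 in fasted cells. The change was 0.00 ± 0.23, with a 95% interval from -0.56 to 0.57, which reaches almost to 1.5-fold in either direction. Lss, lanosterol synthase, changed by 0.13 ± 0.15 on its bright probe set, while a dim one read 16.7, 17.0 and 21.3 in fed against 3.62, 10.3 and 13.2 in fasted cells (-1.20 ± 0.55, adjusted p = 0.358). Dhcr7, which makes cholesterol from a late precursor, changed by -0.00 ± 0.17. Nsdhl, Hsd17b7 and Ebp, which act between lanosterol and Sc5d, changed by -0.17 ± 0.22, -0.36 ± 0.34 and -0.40 ± 0.36. In Hsd17b7 the fed arrays read 50.2, 45.4 and 42.8 and the fasted arrays 25.1, 31.8 and 58.2, and in Ebp the fed arrays read 40.6, 43.0 and 41.5 and the fasted arrays 18.5, 38.2 and 44.6. In both genes fasted replicate 1 was the lowest and fasted replicate 3 the highest of all arrays.

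**Figure D3:**
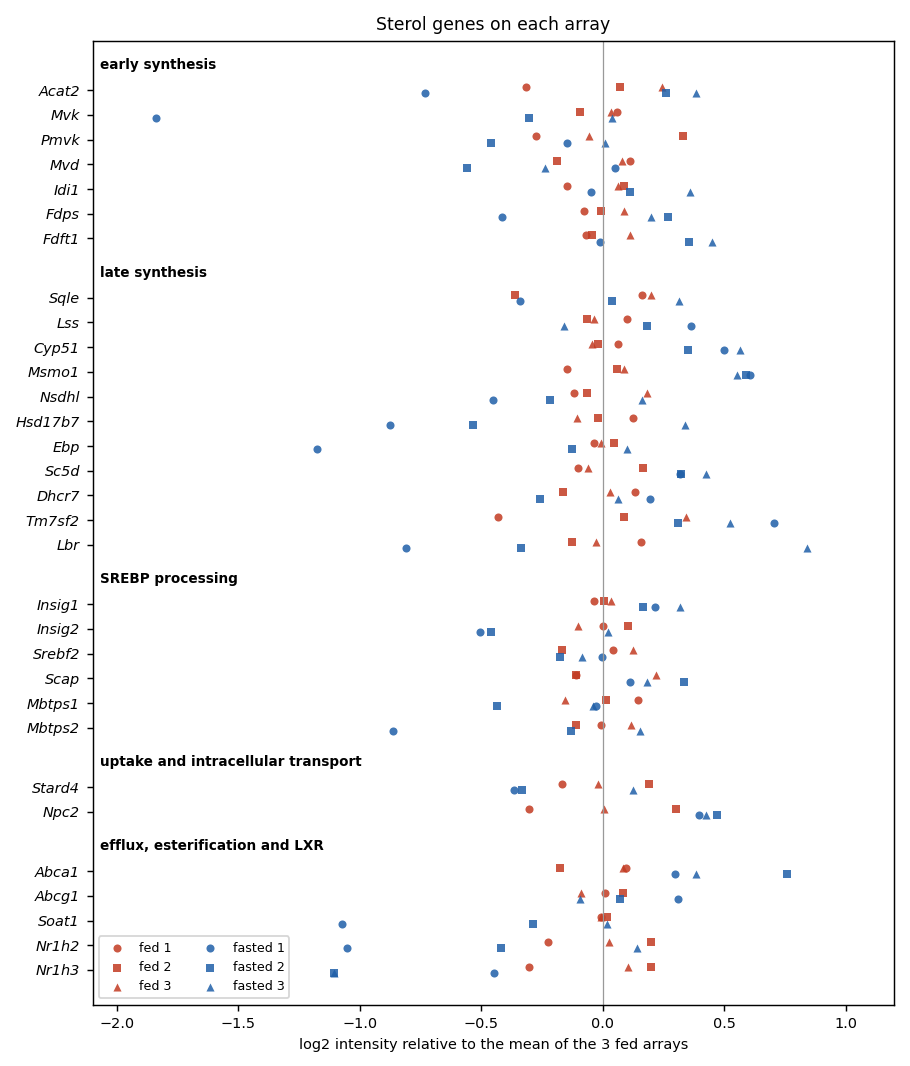
Each row is 1 of the 31 sterol genes, grouped by role, and each symbol is 1 array, placed by its log2 intensity relative to the mean of the 3 fed arrays (x axis; red, fed; blue, fasted). Fasted replicate 1 (blue circles) is the leftmost symbol in 12 rows and fasted replicate 3 (blue triangles) the rightmost in 12 rows. The fasted symbols of Msmo1 sit close together, to the right of all its fed symbols.

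The proteins that hold, escort and cut SREBP2 were represented by 6 genes, with a median log2 change of -0.13. Insig1, which retains the SCAP complex in the endoplasmic reticulum and is itself a target of SREBP2, read 523, 538 and 549 in fed and 623, 601.5 and 668 in fasted cells. The groups did not overlap, and the change was small but with a narrow error, 0.23 ± 0.07 (adjusted p = 0.276). It no longer passed at the unadjusted p without the intensity trend of the variance, without fed replicate 1 (0.21) or without fasted replicate 3 (0.19).

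Insig2, the second retention protein, which is not driven by SREBP2 in the same way, had a change of the opposite sign that did not pass the test. It read 253, 271 and 235 in fed and 178, 184 and 257 in fasted cells, where fasted replicate 3 lay among the fed arrays (-0.31 ± 0.16, adjusted p = 0.395). Its dimmer probe set changed by -0.32 ± 0.35. Srebf2 read 405.5, 351 and 430.4 in fed and 393, 349 and 372 in fasted cells, with overlapping groups and a 95% interval of the log2 change from -0.34 to 0.16. On this probe set, as deposited, the interval does not reach a 1.5-fold difference in either direction. A second, dim probe set of Srebf2 changed by 0.26 ± 0.60, with a 95% interval from -1.21 to 1.72. The mean of both changed by 0.08. Scap, the escort protein, changed by 0.21 ± 0.14 on its bright probe set and by -0.23 ± 0.32 on a dimmer one, with a mean of -0.01. The proteases Mbtps1 and Mbtps2 changed by -0.17 ± 0.15 and -0.28 ± 0.27, with overlapping groups.

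Of the genes for uptake and transport inside the cell, 2 had a probe set of their own. Npc2, a soluble lysosomal protein that passes on cholesterol released from lipoproteins, read 283, 431 and 350 in fed and 459.65, 484 and 468 in fasted cells. The fasted arrays were tight and above all fed arrays, while the fed arrays were spread (mean 354 ± 74.0 SD against 471 ± 12.4 SD, n = 3 each). The log2 change was 0.43 ± 0.16 (adjusted p = 0.300), and the unadjusted p stayed below 0.05 in 9 of 16 alternative analyses. Npc2 no longer passed when any array other than fed replicate 2 was left out, and without fed replicate 1 its change was 0.28. Stard4, which carries sterol between membranes, changed by -0.19 ± 0.22, and its 2 other probe sets by -0.23 ± 0.27 and -0.01 ± 0.34.

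Export, esterification and the LXR receptors were represented by 5 genes, with a median log2 change of -0.44. At the unadjusted p 1 was higher (all probe sets, 3.25%) and 1 lower (all probe sets, 11.6%). Abca1, which loads cholesterol onto apolipoprotein A-I, read 244, 202 and 242 in fed and 280.4, 387 and 298 in fasted cells. The groups did not overlap and the log2 change was 0.48 ± 0.15 (adjusted p = 0.277). Its 3 dimmer probe sets changed by -0.08 ± 0.41, -0.58 ± 0.41 and -0.72 ± 0.61, and none of them passed the test. The mean of all 4 probe sets changed by -0.23 and did not pass, so that the direction for Abca1 depended on the probe set. On its brightest probe set, Abca1 passed at the unadjusted p in all but 1 of the fits that left out an array, and the exception was without fed replicate 2 (0.39). It did not pass in the test on linear values or with the replicate number as a block.

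Abcg1, the exporter that passes cholesterol to high-density lipoprotein, read 667, 702 and 624 in fed and 822, 697 and 621 in fasted cells, a change of 0.09 ± 0.12 with overlapping groups. Its middle probe set changed by 0.08 ± 0.16. The dimmest one read 73.9, 90.2 and 86.8 in fed and 51.8, 47.3 and 58.0 in fasted cells and was called lower (-0.68 ± 0.16, adjusted p = 0.209). Probe sets of Abcg1 therefore differed in their call, as those of Fdft1 did.

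Soat1, which esterifies cholesterol for storage, read 512, 521 and 513 in fed and 245, 422 and 521 in fasted cells. The fed arrays were nearly equal and the fasted arrays spread downwards, with a change of -0.45 ± 0.27 (adjusted p = 0.441). Nr1h2, the LXR form found in most tissues, read 57.5, 77.2 and 68.5 against 32.5, 50.2 and 74.2 (-0.44 ± 0.32, adjusted p = 0.506). Without fasted replicate 3, Soat1 (-0.68), Nr1h2 (-0.74) and Hsd17b7 (-0.70) would have been called lower. In that fit 5562 of all 31042 probe sets were called lower, against 2616 with all arrays.

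Nr1h3, the LXR form known from liver and macrophages, was the only member called. It read 5.71, 8.09 and 7.58 in fed and 5.17, 2.77 and 3.17 in fasted cells, all below the median intensity of each array and with 2 fasted values under the floor. The log2 change after the floor was -0.89 ± 0.27 (adjusted p = 0.271). With the floor at the 25th percentile (7.53) the change was -0.04, and the call was lost in 7 of the 15 alternative analyses that gave it a value, among them those without fasted replicate 2 or fasted replicate 3 (-0.78 in both).

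**Figure D4:**
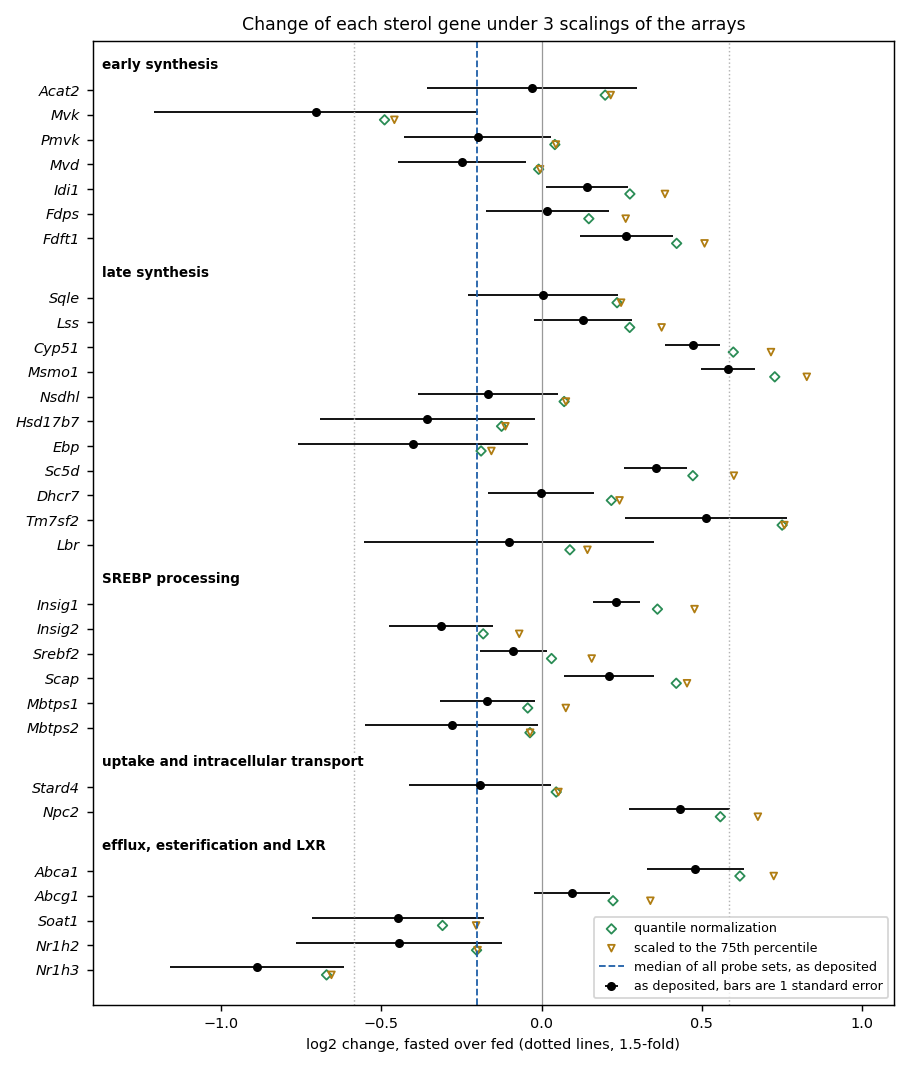
Log2 change (fasted over fed, x axis) of each of the 31 genes as deposited (black, bars 1 SE), after quantile normalization (green) and after scaling to the 75th percentile (ochre). Dotted lines mark 1.5-fold, and the dashed line is the overall median of -0.20. Both scalings move the genes to the right, so that Cyp51, Msmo1, Tm7sf2 and Abca1 pass the upper dotted line under both.

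Other genes of sterol handling were read from a second list of 37 names, of which 31 had a probe set of their own. Their median log2 change was -0.09, with 1 called lower (8.43% of all probe sets) and 1 higher (2.37% of all probe sets). Osbp, an oxysterol-binding protein that moves cholesterol to the Golgi, read 389.7, 275 and 349.7 in fed and 241, 166 and 237 in fasted cells (-0.66 ± 0.20, adjusted p = 0.268). All fasted values lay below all fed values. Cyp27a1, which makes oxysterols in mitochondria, was called higher from values near the floor, with 1.56, 1.06 and 5.40 in fed and 21.0, 7.98 and 5.63 in fasted cells (1.34 ± 0.53, adjusted p = 0.324). At the unadjusted p alone, Stard3, a sterol carrier of late endosomes, was also higher (0.35 ± 0.12, adjusted p = 0.294) and Scp2, a sterol carrier of peroxisomes, lower (-0.36 ± 0.11, adjusted p = 0.268).

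The bulk RNA of a sorted fraction holds whatever cells pass the gate, and fewer cells of a type and less RNA per cell cannot be told apart in it. The summed intensity of 7 beta cell markers was 23603 to 24768 on fed and 22725 to 24166 on fasted arrays, and none of the 7 was called. Most of this sum came from Ins1, Ins2 and Iapp, which were near the top of the array range, and Mafa was lower at the unadjusted p (log2 change -0.34, adjusted p = 0.321). The 8 acinar markers, genes of digestive enzymes, summed to 42721 to 45915 on fed and 39494 to 44705 on fasted arrays, none was called, and their intensities were near the top of the array range. The 3 measured alpha cell markers summed to 3561 to 7770 in fed and 5051 to 5834 in fasted cells, with none called. The 2 delta cell markers summed to 3873 to 4200.2 and 3399 to 4235, and the PP cell marker read 2057 to 4270.3 and 2997 to 3536, with none called. The 7 macrophage markers gave low sums of 115 to 231 and 113 to 137, with none called. Endothelial markers summed to 127 to 269 and 216 to 239, with 1 of 4 called higher (all probe sets, 2.37%). That was Flt1 (0.83), while Plvap (0.22), Pecam1 (0.09) and Kdr (-0.90) were not called. Duct markers summed to 102 to 110.4 and 116 to 132, with 1 of 3 called higher. That was Krt19 (0.70), while Muc1 (-0.65) and Cftr (-0.25) had changes below 0 that were not called. The 4 stellate cell markers summed to 128 to 325 and 149 to 179, with none called. The highest fed value came from fed replicate 2 for the alpha, delta, PP, macrophage and stellate markers. It came from another fed array for the beta, acinar, endothelial and duct markers. Gcg, an alpha cell marker, read 7629 on fed replicate 2, the highest intensity of that array. The part of these cells in the sterol gene values was not tested.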

How the data were processed

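Total RNA of FACS-purified rat beta cells (3 fed and 3 fasted isolates) was hybridised to Affymetrix arrays. The authors summarised probe sets with dChip, a model-based method, after normalization to the array of median intensity and mismatch background correction, and deposited linear intensity values. The dChip version is not given in the sources used here. Files hold no detection calls, and the number of arrays limits the precision. Here 57 control probe sets were left out. A floor was set at the 10th percentile (3.27). On the log2 scale, limma 3.58.1 (R 4.3.3) gave moderated, two-sided tests through lmFit and eBayes with an intensity trend, and p-values of the 31042 probe sets were adjusted by Benjamini-Hochberg. The call of 1.5-fold with an unadjusted p below 0.05 was used, and the count at the unadjusted p alone was chosen after seeing the data. Platform annotation gave 20826 probe sets 1 symbol, 436 several and 9780 none, and only probe sets with 1 symbol were named. The 33 genes had 53 such probe sets, and 16 genes had more than 1. Values of every array were to be printed for called genes and, per role group, for the gene with the largest test statistic and the brightest gene, and others were added after seeing the data. Genes, lists and tests were chosen with earlier results of these data known. Promoters came from RefSeq (GRCr8). The main fit did not pair arrays by replicate number. Alternatives varied scaling, floor, dim probe sets, variance model, test, pairing, the probe set of a gene and the arrays used.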

Additional observations from a re-analysis of the deposited data

How the results depend on the processing

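Of 495 values of single genes recomputed under 16 alternatives, 418 kept their direction and side of an unadjusted p of 0.05. Among the others 22 no longer passed, 15 newly passed, 39 that passed on neither side changed sign, and 1 direction that had passed at the unadjusted p turned, that of Abca1 when its probe sets were averaged (-0.23). Quantile normalization gave 0 sterol genes lower and 4 higher, a median of 0.15, and 1504 lower and 1266 higher of all probe sets. Scaling to the 75th percentile gave 0 lower and 6 higher, a median of 0.22, and 1326 lower and 1426 higher of all. At the unadjusted p alone this scaling gave 0 lower and 10 higher, against 6.1% and 7.1% of all probe sets. No sterol gene was lower (0 by either rule) with the floor at the 25th percentile, with a pseudocount or with the replicate block. With the floor at the 25th percentile, 419 of all probe sets were higher. Leaving out dim probe sets removed Nr1h3, so that setting could not test it. None of the 30 sterol genes kept there was lower, and 379 of the 15520 probe sets kept were higher. The mean of all probe sets gave 1 gene higher, Fdft1 (0.91), and 1 lower, Nr1h3 (-0.89). At the unadjusted p alone it gave 5 higher and 1 lower. The share over all genes was not computed in that setting. The fit without intensity trend gave 3 higher at the unadjusted p, against 3.08% of all probe sets. The Welch test, run as an alternative on linear values, gave 1625 lower and 269 higher of all. Leaving out 1 array in turn gave 0 to 3 sterol genes lower and 0 to 2 higher, with medians from -0.15 to 0.0132. Of all probe sets, 1448 to 5562 were lower and 472 to 1536 higher. At the unadjusted p alone, 0 to 4 sterol genes were lower and 4 to 7 higher. By that rule 6.27% to 21.3% of all probe sets were lower and 1.92% to 5.77% higher. The extremes 3, 4, -0.15, 5562 and 1536 came from leaving out fasted replicate 3, the count of 0 lower from fasted replicate 2, and 1448 lower from fed replicate 1. Same-numbered fed and fasted arrays had correlations of deviations of -0.02, 0.10 and -0.08, against -0.09 to 0.08 for arrays of different numbers. With 3 arrays per group these values cannot decide whether isolates of the same number were paired. The replicate block gave 2046 lower and 644 higher of all. It gave 5 sterol genes higher at the unadjusted p, against 2.7% of all probe sets. No probe set had an adjusted p below 0.05 in the limma fit as reported (4622 at the unadjusted p). Such probe sets numbered 88 with the robust variance, 83 with the pseudocount and 1 with the floor at the 25th percentile. With dim probe sets left out there were 124, adjusted over 15520 probe sets only. The causes were not tested. For Nr1h3, 2 of the 6 values lay under the floor and have no order between them.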
